A study of Mus musculus with 6 samples.

Results

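Ubiquitin-conjugating enzymes, or E2 enzymes, were followed in maturing mouse red cell precursors in which the transcription factor Foxo3 was knocked down. The E2 probes were all non-control probes of the array whose gene name begins with Ube2 and a further letter, with 1 mitotic family member not analysed here. This gave 68 of the 55681 non-control probes, for 34 of 34797 gene names. Ube2cbp meets the naming rule although it is not an E2 enzyme by its fold. The microarray is a 1-colour Agilent design with 60-base probes, and each array carried the Cy3-labelled RNA of 1 sample.

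The cells were G1E-ER-GATA-1, a mouse erythroid line without endogenous GATA-1, in which a GATA-1 fusion with the estrogen receptor becomes active when estradiol is given. The 2 groups were Foxo3 siRNA (3 samples) and nontargeting siRNA (3 samples). Both received siRNA by nucleofection at 0 h and again 24 h later together with estradiol, and all RNA was taken at 48 h. All 6 samples therefore had 24 h of estradiol, and no sample without it was analysed here. The line is a single engineered model. Separate cultures are not stated for the replicates, so a p-value here covers the spread among the 6 samples and no more.

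A ubiquitin-activating enzyme (E1) charges ubiquitin and hands it to the catalytic cysteine of an E2, and a ubiquitin ligase (E3) then brings the charged E2 to its substrate. The E2 helps to decide which linkage a ubiquitin chain gets, and a few E2 enzymes carry the related modifiers SUMO, NEDD8 or ISG15. Ube2h and Ube2o are known for their induction late in red cell maturation. Ube2o ubiquitinates ribosomal and other proteins that the reticulocyte clears, and Ube2h works with the CTLH ligase.

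Values are scaled log2 signals, the log2 signal of a probe minus the 75th percentile of its array, and a fold change is Foxo3 siRNA over nontargeting siRNA. A probe was kept when either group had it well above background in each of its 3 samples, and called at an adjusted p under 0.05 in limma's test across all kept probes. On the RefSeq probe of Foxo3, the 3 Foxo3 siRNA samples had −0.47, −1.29 and −1.89, against 1.20, 1.28 and 1.12 in the nontargeting siRNA samples. The groups were apart, with 18.7% of the nontargeting signal left (log2 fold change −2.42, SE 0.337, limma adjusted p = 0.00511), although 1 Foxo3 siRNA sample was not well above background there. A probe made from a cDNA clone gave a log2 fold change of 0.26 (adjusted p = 0.242). Foxo3 siRNA replicate 3 had 20343 spots well above background, against 30619 to 37532 on the other arrays. All arrays were on 1 slide, whose first row held Foxo3 siRNA replicate 1 and all nontargeting siRNA samples, and whose second row held Foxo3 siRNA replicates 2 and 3. Of 13 erythroblast markers, 12 were well above background on all 6 arrays, with a summed linear signal of 4002 to 5341 times the 75th percentile in Foxo3 siRNA samples and 5692 to 6197 times in nontargeting siRNA samples. This sum is dominated by bright globin and Alas2 probes, which did not pass. They lay lower with the groups apart (Hba-a1 at −0.45, Hbb-bt at −0.54 and Alas2 at −0.40). The 2 called erythroblast markers were higher, Rhag at 1.41 and Tfrc at 0.61 on its brightest probe. Further Tfrc probes gave 0.35 and 0.36 and did not pass. The list's median log2 fold change was 0.12. Of the fibroblast markers, 0 of 8 were above background on all 6 arrays, of the mast cell and basophil markers 1 of 7, of the neutrophil markers 1 of 8, and of the lymphocyte markers 2 of 8. Of the macrophage and monocyte markers it was 2 of 10, with summed signals of 5.54 to 6.74 in Foxo3 siRNA samples against 7.82 to 14.1 in nontargeting siRNA samples. C1qb was called lower at −0.64, with 2 of 3 Foxo3 siRNA samples well above background on its probe. The megakaryocyte list had 6 of 10 on all arrays, with summed signals of 115 to 144 in Foxo3 siRNA samples against 173 to 178 in nontargeting siRNA samples. Within it Treml1 (2.51), Itga2b (1.27) and Gp1ba (0.59) were called higher and the bright Itgb3 (−0.79) lower. The part of these marker levels in the results below was not tested. Fewer cells of a type and less RNA per cell cannot be told apart in such bulk samples.

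Of the 68 Ube2 probes, 61 were kept, for 28 of the 34 genes. Of these, 19 were called (31.1%), 9 higher and 10 lower, while 25.4% of all 26991 kept probes were called (12.3% higher and 13.1% lower). The share of Ube2 probes called is therefore near the background. The Ube2 probes had a median log2 fold change of 0.08, against −0.15 over all kept probes. These sets differ in brightness, since 59 of the 61 kept Ube2 probes but 17844 of all 26991 were well above background on all 6 arrays. With only such probes kept, the medians were 0.07 and 0.01, and 44.1% of Ube2 probes and 41.1% of all were called. Groups did not overlap for 63.9% of the kept Ube2 probes, 20 higher and 19 lower, and for 49.3% of all kept probes. A fold of at least 2 was reached by 6 of the called Ube2 probes (7.33% of all kept probes were called at such a fold), of the genes Ube2h, Ube2o, Ube2b and Ube2t. By the brightest probe of each gene, 8 of 28 genes were called, 3 higher and 5 lower, against 26% of all 19213 genes and unnamed features (13.2% higher and 12.8% lower). The number of calls depends on single samples, for the Ube2 probes as for all kept probes. It was 8 without Foxo3 siRNA replicate 2, 10 without Foxo3 siRNA replicate 3, and 12, 7 and 10 without nontargeting siRNA replicates 1, 2 and 3. In that order, these are 13.1%, 16.4%, 19.7%, 11.5% and 16.4% of the Ube2 probes. Of all kept probes, 14.2%, 13%, 13.7%, 9.62% and 14.8% were called in the same fits. Without Foxo3 siRNA replicate 1 the shares were 24.6% of the Ube2 probes and 21.8% of all kept probes.

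**Figure D1:**
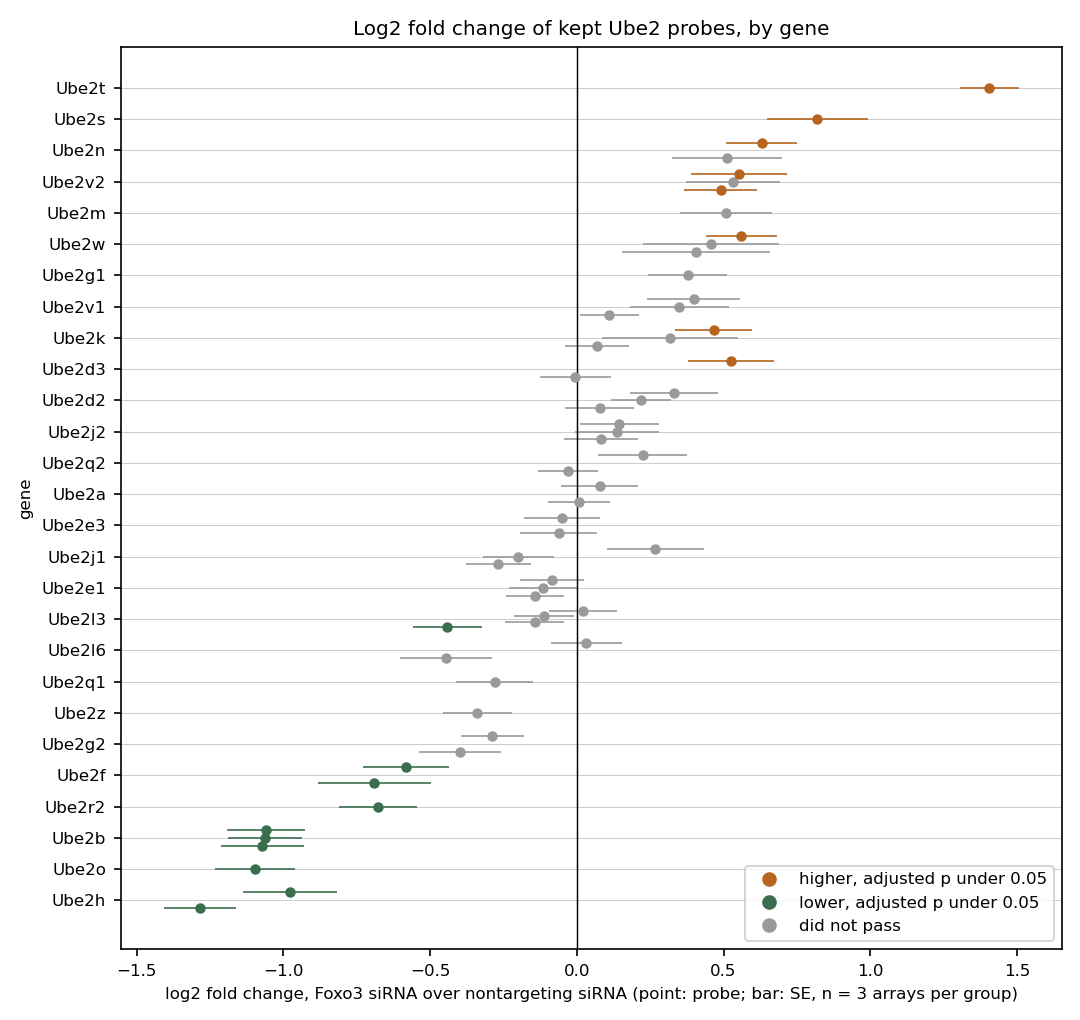
Log2 fold change, Foxo3 siRNA over nontargeting siRNA, of 57 of the 61 kept Ube2 probes by gene (point: 1 probe; bar: SE of the limma fit, 3 samples a group). Probes of Ube2h, Ube2o and Ube2b lie furthest to the left at −0.98 to −1.28, the probe of Ube2t lies furthest to the right at 1.41, and the probes of most other genes lie between.

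The probes for the genes with the largest changes are shown here, each on mm9 and read on the strand of the gene. The first 2 detect Ube2b and overlap, and the capitals mark the 49 bases they share, so they are not separate readings. The others detect Ube2h, Ube2o and Ube2t.
Ube2b, chr11:51800169-51800228, minus strand: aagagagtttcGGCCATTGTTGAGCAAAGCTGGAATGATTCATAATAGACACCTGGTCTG
Ube2b, chr11:51800158-51800217, minus strand: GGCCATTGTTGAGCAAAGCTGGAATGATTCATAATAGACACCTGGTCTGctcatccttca
Ube2h, chr6:30164959-30165018, minus strand: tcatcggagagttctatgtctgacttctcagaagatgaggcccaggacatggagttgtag
Ube2o, chr11:116399379-116399438, minus strand: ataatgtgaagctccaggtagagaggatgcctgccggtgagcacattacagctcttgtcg
Ube2t, chr1:136865821-136865880, plus strand: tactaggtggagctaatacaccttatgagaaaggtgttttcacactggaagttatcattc

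Among the E2 genes with a known role late in red cell maturation, Ube2h and Ube2o were lower with Foxo3 siRNA. On the Ube2h probe shown above, Foxo3 siRNA samples had 1.68, 1.50 and 1.62, against 2.73, 2.93 and 3.00 in nontargeting siRNA samples. All 3 Foxo3 siRNA samples lay more than 1 log2 unit below every nontargeting sample, a 2.44-fold lower signal (log2 fold change −1.28, SE 0.124, limma adjusted p = 0.00185). The second Ube2h probe had 2.16, 2.20 and 2.20 in Foxo3 siRNA samples, against 2.85, 3.36 and 3.30 in nontargeting siRNA samples, a log2 fold change of −0.98 (SE 0.160, adjusted p = 0.00839). The groups were apart on it too. Ube2o had 6.21, 6.06 and 5.92 in Foxo3 siRNA samples, against 6.99, 7.26 and 7.22 in nontargeting siRNA samples. The groups did not overlap, and the signal fell to 46.8% of the nontargeting level (log2 fold change −1.10, SE 0.135, adjusted p = 0.00353).

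Ube2b, the RAD6 homologue that works with Rad18, the Rnf20 and Rnf40 pair and the Ubr ligases in DNA damage tolerance, histone H2B ubiquitination and the N-degron pathway, fell by about the same amount on each of its 3 probes. The probe A_51_P244690, the second shown, had 4.90, 4.73 and 4.90 in Foxo3 siRNA samples, against 5.74, 5.94 and 6.03 in nontargeting siRNA samples, a 2.09-fold lower signal (log2 fold change −1.06, SE 0.126, adjusted p = 0.00327). The probe that shares none of those bases, A_51_P483557, had 2.26, 2.08 and 2.30 in Foxo3 siRNA samples, against 3.11, 3.25 and 3.44 in nontargeting siRNA samples (log2 fold change −1.06, SE 0.134, adjusted p = 0.00388). On both, every Foxo3 siRNA sample lay below every nontargeting sample. Ube2a, the other RAD6 homologue of mouse, did not pass on either of its probes, with log2 fold changes of 0.08 and 0.01 and overlapping groups. A difference between Ube2a and Ube2b was not tested.

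Of the enzymes that carry NEDD8, Ube2f fell and Ube2m did not pass. Ube2f, the NEDD8 E2 that works with Rnf7, had 3.11, 2.99 and 3.41 in Foxo3 siRNA samples on 1 probe, against 3.57, 3.85 and 4.17 in nontargeting siRNA samples (log2 fold change −0.69, SE 0.192, adjusted p = 0.0429). Its other probe had 1.35, 1.30 and 1.61 in Foxo3 siRNA samples, against 1.80, 2.04 and 2.16 in nontargeting siRNA samples (log2 fold change −0.58, SE 0.148, adjusted p = 0.0328). The groups were apart on both probes. Ube2m, the NEDD8 E2 that works with Rbx1, had a log2 fold change of 0.51 (SE 0.157, adjusted p = 0.0568).

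Ube2r2, which extends chains on substrates of cullin-RING ligases, fell. It had 5.30, 4.96 and 5.22 in Foxo3 siRNA samples, against 5.78, 5.80 and 5.94 in nontargeting siRNA samples. The groups were apart, with a 1.60-fold lower signal (log2 fold change −0.68, SE 0.133, adjusted p = 0.0148). Its paralogue Cdc34, listed with the other E2 enzymes, was also called lower at −0.44 (SE 0.107, adjusted p = 0.0289).

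The E2 of DNA crosslink repair rose. Ube2t, which ubiquitinates Fanci and Fancd2 with the ligase Fancl, had −1.26, −1.30 and −1.36 in Foxo3 siRNA samples, against −2.76, −2.68 and −2.70 in nontargeting siRNA samples. Every Foxo3 siRNA sample lay above every nontargeting sample, a 2.65-fold higher signal (log2 fold change 1.41, SE 0.102, adjusted p = 9.04e-04). Of the Foxo3 siRNA samples 2 of 3 had this probe well above background, as did all nontargeting siRNA samples. With normexp background correction the log2 fold change was 0.70. Ube2s, which builds K11 chains with the anaphase-promoting complex, had 5.76, 5.58 and 5.54 in Foxo3 siRNA samples, against 5.04, 4.91 and 4.48 in nontargeting siRNA samples (log2 fold change 0.82, SE 0.173, adjusted p = 0.0188). The groups were apart, and the signal was 1.76-fold higher. Beside these, 13 of the 14 kept genes of a list of S phase and mitosis genes rose, with a median log2 fold change of 2.48, among them Bub1 at 3.86 (adjusted p = 3.28e-04), Aurka at 2.64 and Plk1 at 2.50. The part of these genes in the change of Ube2t and Ube2s was not tested.

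Ube2n and Ube2v2, which together make K63 chains, were called higher on some of their probes. Ube2n, the catalytic subunit, had 0.56, 0.65 and 0.46 in Foxo3 siRNA samples on 1 probe, against −0.18, −0.11 and 0.06 in nontargeting siRNA samples (log2 fold change 0.63, SE 0.121, adjusted p = 0.0138). Its other probe had 1.27, 1.67 and 1.80 in Foxo3 siRNA samples, against 0.82, 1.15 and 1.24 in nontargeting siRNA samples (log2 fold change 0.51, SE 0.187, adjusted p = 0.0871). The groups were apart on both. Ube2v2, a partner of Ube2n without a catalytic cysteine, had 4.36, 4.62 and 4.57 in Foxo3 siRNA samples on 1 probe, against 3.91, 4.05 and 4.12 in nontargeting siRNA samples (log2 fold change 0.49, SE 0.125, adjusted p = 0.0330). A second probe was called at 0.55 (adjusted p = 0.0498), and the third had 0.53 (adjusted p = 0.0535) and was not. The 3 probes thus lay on both sides of the threshold at similar sizes. Ube2v1, the other such partner, had log2 fold changes of 0.35, 0.11 and 0.40 and did not pass.

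**Figure D2:**
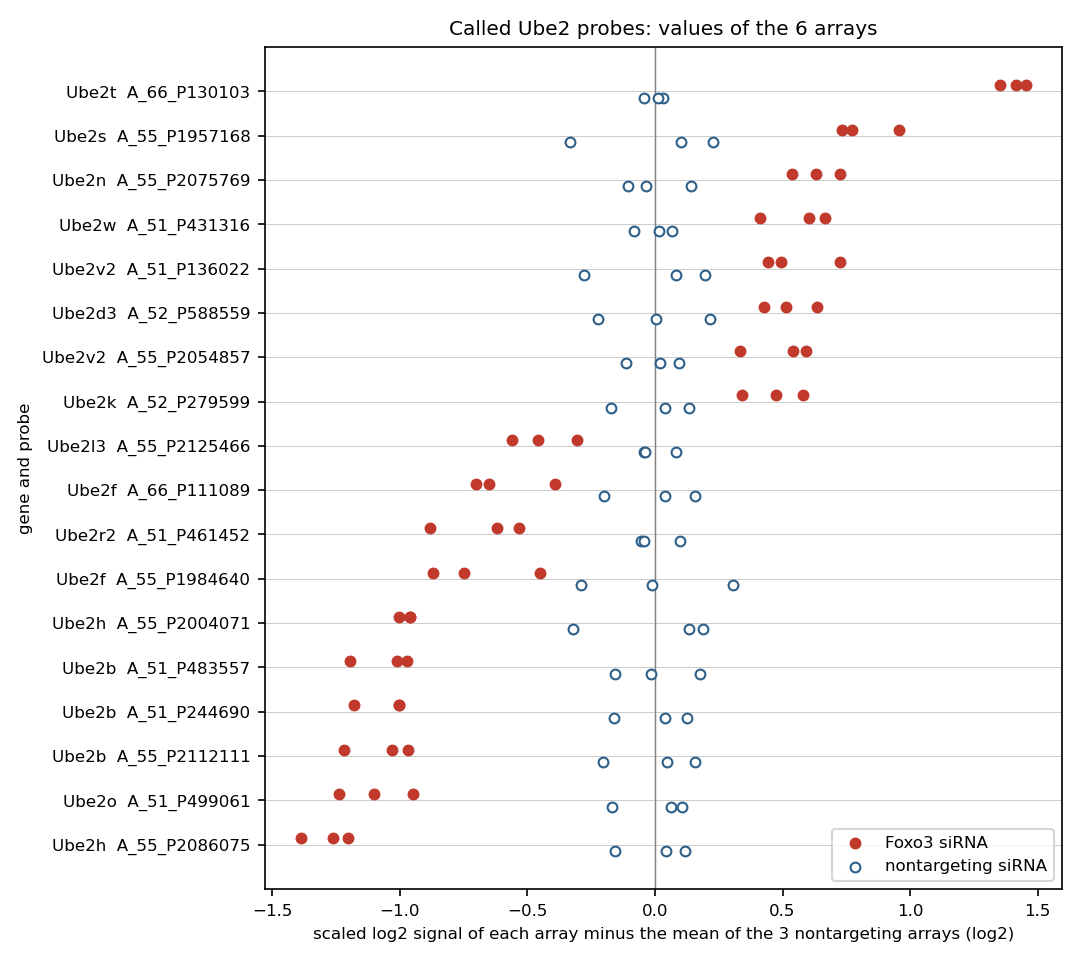
Scaled log2 signal of each array minus the mean of the 3 nontargeting siRNA arrays, for 18 of the 19 called Ube2 probes (upper, filled points: Foxo3 siRNA; lower, open points: nontargeting siRNA). For every probe drawn the 3 filled points lie on 1 side of all 3 open points, furthest to the left for Ube2h and furthest to the right for Ube2t.

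The remaining genes with a call on some probes were Ube2d3, Ube2k, Ube2l3 and Ube2w. Ube2d3, a broadly acting E2, had 3.58, 3.78 and 3.66 in Foxo3 siRNA samples on 1 probe, against 2.93, 3.36 and 3.15 in nontargeting siRNA samples (log2 fold change 0.53, adjusted p = 0.0429), while its other probe gave −0.01. Ube2k, which makes K48 chains, had 1.50, 1.40 and 1.27 in Foxo3 siRNA samples, against 0.75, 0.96 and 1.06 in nontargeting siRNA samples (log2 fold change 0.47, adjusted p = 0.0446), and 0.07 and 0.32 on its other 2 probes, which did not pass. Groups were apart on each called probe of these genes. Ube2l3, the partner of HECT and RING-between-RING ligases, was lower on 1 of 4 probes, with 5.06, 4.91 and 4.80 in Foxo3 siRNA samples against 5.32, 5.32 and 5.44 in nontargeting siRNA samples (log2 fold change −0.44, adjusted p = 0.0377). Its other 3 probes had −0.11, −0.14 and 0.02. Ube2w, which ubiquitinates the amino terminus of proteins, had −0.08, 0.12 and 0.18 in Foxo3 siRNA samples, against −0.57, −0.47 and −0.42 in nontargeting siRNA samples (log2 fold change 0.56, adjusted p = 0.0195). Its other 2 probes had 0.46 and 0.41 and did not pass. With all kept probes of a gene averaged before the fit, 9 of the 28 genes were called. They were higher for Ube2t, Ube2s, Ube2n and Ube2v2 and lower for Ube2h, Ube2o, Ube2b, Ube2r2 and Ube2f. The share of all genes called in that fit was not recorded, so this count has no background to be read against.

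Of the genes whose probes did not pass, the endoplasmic reticulum E2 enzymes Ube2g1, Ube2g2, Ube2j1 and Ube2j2 had log2 fold changes of 0.38 for Ube2g1, −0.29 and −0.40 for Ube2g2, −0.27 to 0.27 for Ube2j1 and 0.08 to 0.14 for Ube2j2. Ube2l6, the ISG15 E2, had −0.45 on 1 probe (adjusted p = 0.0794) and 0.03 on the other. Ube2d2 had 0.08 to 0.33, Ube2e1 had −0.09 to −0.14 and Ube2e3 had −0.06 and −0.05. Ube2q1 had −0.28, Ube2q2 had −0.03 and 0.22, and Ube2z, an E2 that takes ubiquitin and FAT10 from Uba6, had −0.34 (adjusted p = 0.0771). An adjusted p above the threshold does not show that the groups had equal levels. The probes of Ube2cbp, Ube2d1, Ube2dnl, Ube2e2, Ube2ql1 and Ube2u, 7 in all, were well above background on 0 of the 6 arrays and have no fold change.

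The partners of the E2 enzymes were read from 11 lists of other genes of the ubiquitin and Fanconi pathways, in which 35 of 156 kept genes were called (22.4%), 23 higher and 12 lower. Over all genes and unnamed features 26% were called, so this share is near the background. For CTLH, the ligase that Ube2h serves, 6 of 11 subunits were called, 4 lower and 2 higher. Wdr26, a substrate-recruiting subunit, had 3.66, 3.52 and 3.40 in Foxo3 siRNA samples, against 4.30, 4.58 and 4.51 in nontargeting siRNA samples (log2 fold change −0.94, SE 0.131, adjusted p = 0.00504). The subunits Ypel5 (−0.61), Ranbp10 (−0.48) and Rmnd5a (−0.65) were lower too. Gid4, a substrate receptor, was higher at 0.68 (adjusted p = 0.0115), as was Armc8 at 0.58. The median over the 11 subunits was −0.12, and Maea, one of the RING subunits, had −0.12 and did not pass. The CTLH calls numbered 3 without Foxo3 siRNA replicate 2 or 3, 2 without nontargeting siRNA replicate 2, 2 with median scaling and 0 with the slide row as a block. Of all kept probes, 14.2%, 13%, 9.62%, 19.5% and 6.93% were called in these fits, in that order, against 25.4% as reported.

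Of the Fanconi anaemia genes in which Ube2t works, 5 of 8 kept were called, and all 5 were higher, with a median of 0.73. Fanci, a substrate of Ube2t, had −0.91, −0.57 and −0.89 in Foxo3 siRNA samples, against −3.18, −2.41 and −2.91 in nontargeting siRNA samples (log2 fold change 2.04, SE 0.218, adjusted p = 0.00240). A second Fanci probe gave −1.01 and did not pass (adjusted p = 0.278), so the Fanci reading rests on 1 probe. Fancg was higher at 0.97, Fancf at 0.85, Fanca at 0.82, and Fancl, the ligase, at 0.65 on its brightest probe, while a second Fancl probe gave 0.25 (adjusted p = 0.158).

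**Figure D3:**
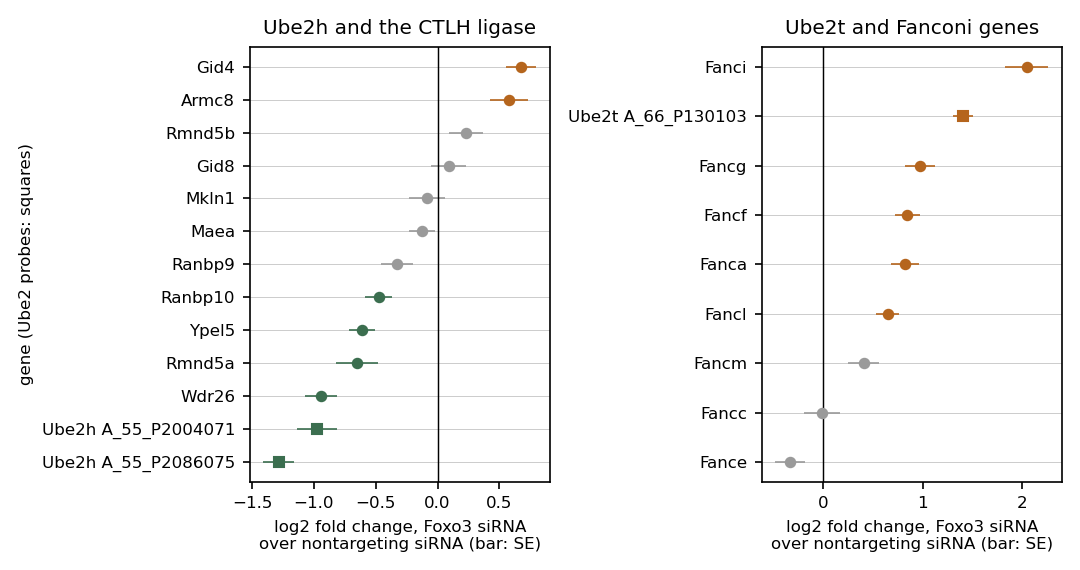
Log2 fold change, Foxo3 siRNA over nontargeting siRNA, of the CTLH subunits with the Ube2h probes (left) and of the Fanconi anaemia genes with the Ube2t probe (right), by the brightest kept probe of each listed gene (points) or by Ube2 probe (squares), with bars for the SE of the limma fit. Orange and green mark values past the threshold on the higher and the lower side and grey marks the others. Ube2h and 4 subunits lie left of 0 in green and Gid4 and Armc8 lie right of it in orange.

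Among the other lists, the E1 enzymes had 1 call in 10, Uba2 of the SUMO pathway, higher at 0.39 (adjusted p = 0.0492). Uba7, the ISG15 E1, had −0.41, Atg7 had 0.24 and Nae1 had 0.24, none of which passed. The ubiquitin and modifier genes had 0 calls in 13 with limma, and 3 had an unadjusted p under 0.05. The polyubiquitin gene Ubb (−0.36, adjusted p = 0.0506) and Ufm1 (0.33) had the smallest p, and Isg15 had 0.24. Of the other E2 enzymes, Atg10, the E2 of autophagy that conjugates Atg12, was higher at 0.87 (adjusted p = 0.00742), while Aktip (−0.42) and Atg3 (0.56) did not pass.

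The ligases had calls in both directions. The HECT ligases had 6 calls in 19, with Trip12 (0.77) and Wwp1 (0.76) higher and Wwp2 (−0.53) and Hace1 (−0.69) lower. The RING-between-RING ligases, partners of Ube2l3, had 3 in 11, with Rnf19b lower at −0.76 (adjusted p = 0.0106), Rnf19a higher at 0.79 and Ankib1 higher at 0.56. Rnf144b had −0.86 and did not pass. Of the partners of Ube2a, Ube2b and Ube2n, 2 of 14 were called, Ubr3 at 0.52 and Hltf at 0.48, both higher, while Shprh (0.51) and Wac (−0.36) did not pass. A dimmer probe of Ubr3 (0.53, adjusted p = 0.0877) and of Hltf (0.45, adjusted p = 0.0574) did not pass either. Rnf5, an endoplasmic reticulum ligase, was higher at 0.48 and Derl1 was lower at −0.44, while Rnf185 (−0.37) and Rnf145 (−0.40) did not pass.

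Rnf7, the RING partner of Ube2f, was the 1 call among 13 genes of SUMO and NEDD8 ligation, with 4.03, 4.05 and 3.93 in Foxo3 siRNA samples against 3.27, 3.42 and 3.32 in nontargeting siRNA samples (log2 fold change 0.66, adjusted p = 0.00814). All 4 of its probes were called higher, at 0.45 to 0.66, while both probes of Ube2f were lower. Nsmce2 (0.41), Pias3 (−0.39) and Dcun1d3 (−0.61) did not pass. The deubiquitinases had 7 calls in 37, with Otub2 lower at −0.74 (adjusted p = 0.00657) and Usp22 at 0.88, Usp5 at 0.55 and Brcc3 at 0.49 higher. The Usp22 probe is dim, and 2 of 3 Foxo3 siRNA samples had it well above background, as did all nontargeting siRNA samples.

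Sequence before the gene starts was searched for a forkhead word, TGTTTAC, and for the GATA words AGATAA and TGATAA, on both strands, in RefSeq promoters of GRCm38.p6 that run from 250 bases before to 50 bases after each start. The table holds 38 promoters for 27 of the 34 Ube2 genes. TGTTTAC was in 1 of these (2.63%), against 3.65% of all 32851 promoters, and a GATA word in 1 (2.63%), against 18.6%. Both lie in the same promoter, at 1 of the 2 starts listed for Ube2h, on the minus strand. It is printed, with the words in capitals, because it holds both words. The search was set up with the changes of the Ube2 genes known, and further words were listed but left out of it. AGATAA begins 204 bases and GTAAACA, the reverse complement of TGTTTAC, 194 bases before the start. A match is a string of letters and no measure of binding.
Ube2h, chr6:30243754-30244053, GRCm38.p6, minus strand: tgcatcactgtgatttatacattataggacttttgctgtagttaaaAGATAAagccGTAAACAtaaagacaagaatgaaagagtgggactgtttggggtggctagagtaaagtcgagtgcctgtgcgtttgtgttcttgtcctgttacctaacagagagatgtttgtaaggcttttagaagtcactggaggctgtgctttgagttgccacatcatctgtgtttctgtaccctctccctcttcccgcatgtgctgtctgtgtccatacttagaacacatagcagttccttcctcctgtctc

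Each probe of Ube2t, Ube2h, Ube2o and Ube2b stayed called when any 1 of the 6 samples was left out. The called probes of Ube2d3 and Ube2k and 1 of Ube2v2 kept their call in 0 of these 6 fits. That of Ube2l3 and the other called probe of Ube2v2 kept it in 1, and those of Ube2s and Ube2w in 2. For Ube2f it was 1 and 2 by probe, and for Ube2n and Ube2r2 it was 4. With the slide row as a block, 5 of the 19 calls remained and 6.93% of all kept probes were called. The second row holds Foxo3 siRNA samples only, so siRNA and slide row are partly confounded. A log2 fold change with this block therefore rests on Foxo3 siRNA replicate 1 against the nontargeting siRNA samples. The log2 fold changes in that fit were 1.45 for Ube2t (adjusted p = 0.0148), −1.20 for Ube2h (0.0263), −0.95 for Ube2o (0.0434) and −1.01 for Ube2b on A_51_P483557 (0.0464), and 2 of the 3 Ube2b probes passed. Among the arrays of the first row alone, which hold 1 Foxo3 siRNA sample, the same log2 fold changes had adjusted p = 0.0377 for Ube2t, 0.0634 for Ube2h, 0.0899 for Ube2o and 0.0871 for Ube2b. With the block, the second Ube2h probe (adjusted p = 0.0718), Ube2s (0.95, adjusted p = 0.0869) and Ube2r2 (−0.53, adjusted p = 0.139) did not pass. When arrays were scaled to their median in place of the 75th percentile, the median of all kept probes moved to 0.15, 77.2% of all calls were higher against 48.5%, and the Ube2 probes had 14 higher and 5 lower calls. Ube2h kept its call on 1 of 2 probes there (−0.98, adjusted p = 0.00814), Ube2o (−0.79) and Ube2b (−0.76) kept theirs, and Ube2f, Ube2r2 and Ube2l3 did not. In the authors' deposited table, 5 Ube2 probes had an adjusted p under 0.05, those of Ube2b (3 probes), Ube2o and Ube2h, and each had the sign given here. All 5 were lower, and 0 Ube2 probes passed there as higher. By the authors' limma values, Ube2t had a log2 fold change of 1.04 (adjusted p = 0.0959) and Ube2s 0.88 (adjusted p = 0.0988).

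**Figure D4:**
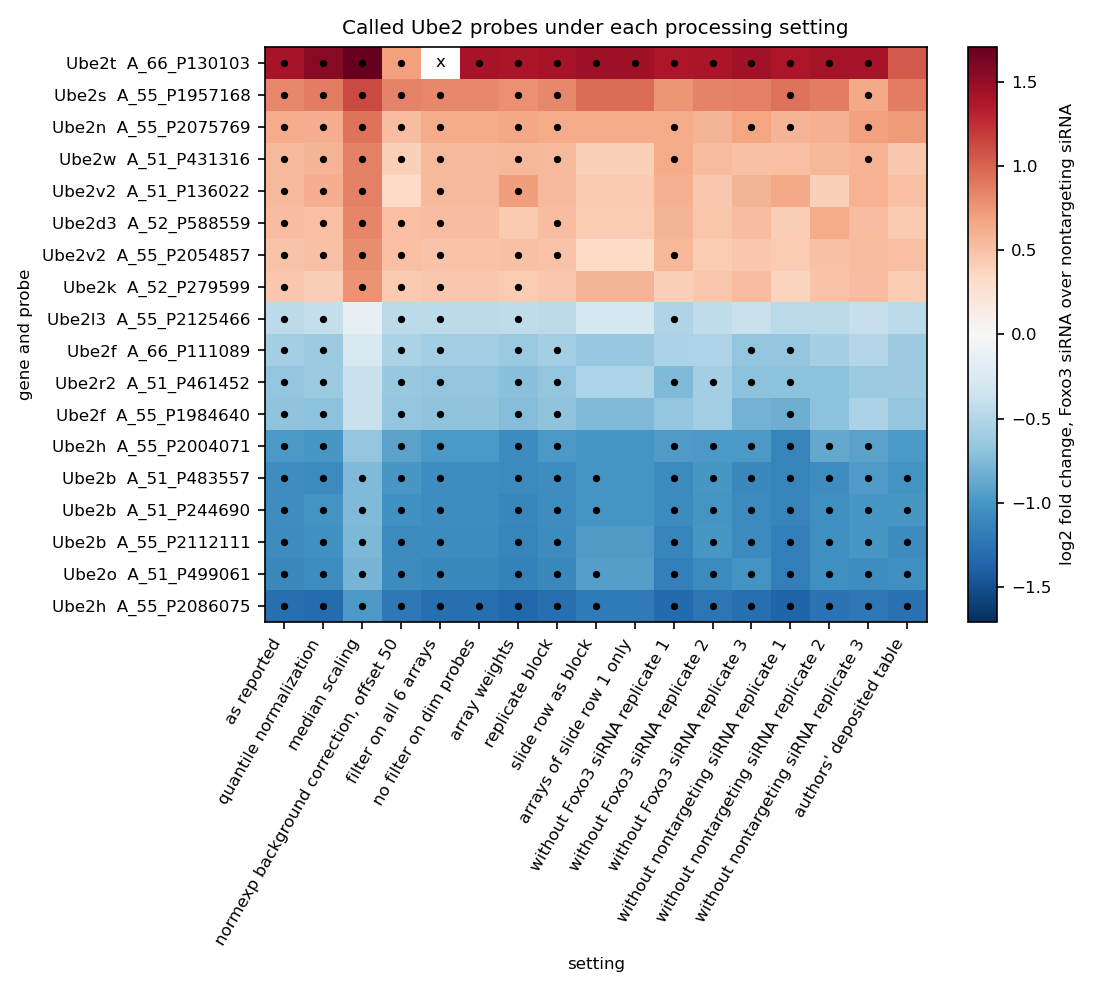
Log2 fold change, Foxo3 siRNA over nontargeting siRNA, of 18 of the 19 called Ube2 probes (rows) as reported and under 16 other settings (columns); a dot marks an adjusted p under 0.05 and x a probe that a stricter filter left out. No colour changes side along a row, and the Ube2t, Ube2h, Ube2o and Ube2b rows carry the most dots.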

How the data were processed

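RNA of 6 samples, 3 with Foxo3 siRNA and 3 with nontargeting siRNA, was labelled from 0.1 µg and hybridised to 1-colour arrays. Per the file headers, the intensity of each spot comes from Feature Extraction (Agilent, version 10.7.3.1), with the background subtracted and a surrogate value set where a signal was not above it. The deposited series table holds the same intensity values with the authors' log2 fold change and p-value. These came from limma, per the submitters' processing notes, and their normalization is not given in the sources used here.

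The processed signal was taken to log2 and the 75th percentile of each array over non-control probes was subtracted. Control spots were left out, outlier spots were set to missing, and spots of 1 probe were averaged. Groups were compared with limma 3.58.1 in R 4.3.3 (lmFit, eBayes, two-sided, no covariates), with Benjamini-Hochberg adjustment over 26991 kept probes. All adjusted p-values come from it unless credited to the authors. A listed gene is represented by its brightest kept probe. The fit was also run on simulated data with few changed probes. Changes of 0.5 log2 units were all missed there, and those of 1 log2 unit were mostly missed. With 3 arrays a group, the number of arrays limits the precision.

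The Ube2 members, the lists and the tests were chosen with earlier results of these data known. Values per sample were given for called members with non-overlapping groups, up to 15 by absolute log2 fold change, and for genes whose probes differed in their call. Up to 4 genes of each list were named by smallest adjusted p, and further genes of the CTLH and Fanconi lists were named after their values were seen. Alternatives were quantile normalization, median scaling, normexp background correction with an offset of 50, 2 other filters, array weights, a replicate block, the slide row as a block or alone, leaving out each sample, and the authors' deposited table. Correlations between same-numbered samples, of their deviations from the group means, were 0.164, −0.310 and 0.114. They show no common pairing by number but cannot exclude it, because the slide row also differed between samples. Probes are placed by the array design (mm9), and promoters are from RefSeq on GRCm38.p6. The results of 1 Ube2 gene and 1 listed gene are counted but not reported here by name, and the Ube2 gene is not drawn.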

Additional observations from a re-analysis of the deposited data

How the results depend on the processing

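Across 303 combinations of a called Ube2 probe and another setting, 175 kept the call, 128 lost it and 0 changed sign. Without the filter on dim probes, 2 Ube2 probes, 1 Ube2 gene, 634 of all probes and 14 genes of the 12 lists, with the S phase and mitosis genes among them, were called, and Foxo3 did not pass (log2 fold change −2.42, adjusted p = 0.0614). With the slide row as a block the counts were 5, 3, 1871 and 17, with the first slide row alone 1, 1, 780 and 13, and by the adjusted p of the authors' deposited table they were 5, 2, 1127 and 14. Leaving out 1 sample gave 7 to 15 Ube2 probes, 4 to 7 Ube2 genes, 2710 to 5919 of all probes and 24 to 44 listed genes, against 19, 8, 6857 and 48. The lowest counts came without nontargeting siRNA replicate 2. With the replicate block, 18 Ube2 probes and 6754 of all probes were called. A pairing of the samples by replicate number was neither shown nor excluded, and the block is no part of the results above. The cause of these differences was not tested. On Foxo3 siRNA replicate 3 the lowest level well above background was −2.50, while elsewhere it lay between −5.40 and −4.04, which limits what can be said of dim probes such as that of Ube2t.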
